A study of Rattus norvegicus with 45 samples.

Results

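The genes described here are 9 ion channel genes of the rat ventral tegmental area (VTA) that could be named in the RNA-seq values, 9 of 32883 genes in all. The values carry Ensembl identifiers, and symbols were at hand for 1998 genes that a list of the study pairs with its identifiers. Of these, 12 symbols began with a channel or receptor prefix (Kcn, Cacn, Scn, Clcn, Gabr, Gri, Glr, Chrn, Trp, P2rx, Asic or Ano). Grina, whose symbol has no digit, and Scn3a, which the rule leaves out by name, were dropped, which left 10, of which 9 are described. They belong to 3 of the 12 prefixes searched: 2 genes of the voltage-gated sodium channel family (Scn9a and Scn7a), 4 potassium channel genes (Kcna5, Kcng4, Kcnh6 and Kcnj11) and 3 ionotropic glutamate receptor genes (Grin2c, Grik2 and Grik4). They are not a survey of these families, because the list that named them was ordered by a measured comparison, as described below.

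Sodium channels open on depolarization and start the action potential, voltage-gated potassium channels end it and set the interval to the next, and inward rectifier potassium channels hold the membrane near rest. NMDA and kainate receptors are glutamate-gated cation channels of the synapse, and their subunit makeup sets their kinetics and, in NMDA receptors, their block by magnesium. In the VTA, which holds dopamine neurons beside GABA and glutamate neurons and many glia, such channels shape pacemaking and burst firing, and several of them are also made by glia and vessels.

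All rats were wild-type male Sprague-Dawley rats that self-administered (SA) heroin or saline for 10 d, had 1 of 3 viral vectors (AAV2 by the study's methods, lentiviral by the series text) infused into the VTA on day 11 and were kept in enforced abstinence for 30 d before the GFP-lit tissue was punched. The vectors carried GFP without a histone (empty), the histone variant H3.3 (H3.3 WT), or H3.3Q5A, in which glutamine 5 of the tail is an alanine that cannot receive dopamine. The promoter that drives the vectors is not given in the sources used here, the infected cells were not sorted, and a punch holds infected and uninfected cells. Among saline rats the labels give 7 with each vector. Among heroin rats they give 8 with the empty vector, 7 with H3.3 WT and 8 with H3.3Q5A, which makes 44 in all. A further saline library is H3.3Q5A by its title and H3.3 WT by its treatment, and it was left out. Each library is 1 rat, so tests are over rats.

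The unit throughout is the deposited variance-stabilized count, a log2-like value on which a difference of 1 is close to a doubling for genes with many reads and understates the change of genes with few. Reads on genes ran from 24308953 to 71104049 per rat, with a median of 42574786. No member was near the floor of the scale: the lowest count of any member in any rat was the 64 reads of Kcna5, and Kcna5 (median 192 depth-normalized reads) and Kcnh6 (median 317) were the members with the fewest reads and hence the widest counting error. DEx genes, here and below, have a Benjamini-Hochberg adjusted p under 0.05 over all 22570 genes tested in limma and differ by more than 0.2 on the log2 scale, the thresholds of the study. In a punch, fewer cells of a type and less RNA per cell cannot be told apart. None of the 8 listed dopamine neuron markers could be named, so the VTA label was not checked against them; 8 of the 12 listed neuronal markers were named and none was at 0 in any group.

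The genes lie on 7 rat chromosomes (rn6), and 8 of 9 are on the minus strand. Scn9a (chr3:52583950-52664209) and Scn7a (chr3:52777213-52849907) are neighbours in a sodium channel cluster, 113004 bases apart, and the others are at chr1:102103093-102106127 (Kcnj11), chr4:159077194-159079003 (Kcna5), chr8:46806146-47094352 (Grik4), chr10:94207313-94228236 (Kcnh6), chr10:103798290-103816287 (Grin2c), chr19:52270926-52282877 (Kcng4) and chr20:53789759-54517709 (Grik2). RefSeq promoters on the GRCr8 build were at hand for 8 of the 9, by symbol. The 250 bases before the start are printed for 4 genes whose heroin difference depended on the vector, so that 2 that were higher in this comparison can be set beside 2 that were lower. Capitals mark the E-box CAGCTG, which reads the same on both strands. All 4 genes are on the minus strand, and the sequences are written 5′ to 3′ on it. Kcna5 (chr4:161043810-161044059) and Scn9a (chr3:71701378-71701627) were higher in that interaction of drug and vector, and Kcng4 (chr19:64597889-64598138) and Grik4 (chr8:52102064-52102313) were lower.
Kcna5: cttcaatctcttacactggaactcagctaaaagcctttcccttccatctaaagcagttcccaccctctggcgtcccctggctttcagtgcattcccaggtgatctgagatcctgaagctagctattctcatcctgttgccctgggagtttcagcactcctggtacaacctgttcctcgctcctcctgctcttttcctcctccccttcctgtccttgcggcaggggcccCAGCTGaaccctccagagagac
Scn9a: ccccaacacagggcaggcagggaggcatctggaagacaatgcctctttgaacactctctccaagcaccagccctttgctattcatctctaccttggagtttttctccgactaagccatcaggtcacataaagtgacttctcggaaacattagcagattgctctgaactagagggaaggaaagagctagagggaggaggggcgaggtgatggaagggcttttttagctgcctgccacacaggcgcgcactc
Kcng4: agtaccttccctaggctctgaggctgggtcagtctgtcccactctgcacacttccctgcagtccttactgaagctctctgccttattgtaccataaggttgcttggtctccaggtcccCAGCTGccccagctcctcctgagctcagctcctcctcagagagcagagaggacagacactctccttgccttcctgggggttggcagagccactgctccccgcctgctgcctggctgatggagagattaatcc
Grik4: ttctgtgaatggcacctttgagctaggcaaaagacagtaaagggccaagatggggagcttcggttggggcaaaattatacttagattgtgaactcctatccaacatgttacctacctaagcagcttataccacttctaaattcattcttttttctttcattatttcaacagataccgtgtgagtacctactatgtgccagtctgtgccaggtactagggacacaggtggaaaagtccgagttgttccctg

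CAGCTG was in these windows of Kcna5, Kcng4 and Scn7a, 3 of 8 members, against 11.97% of all 33469 promoters in the table. The GC box GGGCGG, searched on both strands, was in the windows of Kcnh6 and Scn7a, 2 of 8, against 30.5% of all promoters. The TATA box TATAAA (12.9% of all, both strands) and the cAMP response element TGACGTCA (1.59% of all) were in none of the 8. Kcnh6 was the most GC-rich, with 69.6% G or C and 18 CpG, against a median of 51.2% over all promoters, and Grik4 the least, with 43.2%.

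The genes that could be named were those that differed between the 2 saline control vectors. In saline H3.3 WT vs. saline empty, 1852 of the other 1988 named genes (93.2%) had an unadjusted p under 0.05, against 16.8% of all genes tested. The members were in effect chosen by this comparison, and their values in it are a description with no test. H3.3 WT was higher than empty in saline rats for Grin2c by 0.45 ± 0.13 (log2 fold change ± SE), Kcng4 by 0.41 ± 0.20, Grik4 by 0.24 ± 0.09 and Kcnj11 by 0.22 ± 0.10. The difference was -0.54 ± 0.25 for Scn9a, -0.40 ± 0.16 for Scn7a, -0.30 ± 0.19 for Kcna5, -0.24 ± 0.09 for Grik2 and -0.22 ± 0.11 for Kcnh6. The members thus divided into 4 above 0 and 5 below. The tests below were kept to comparisons that contain neither saline control group or only the mean of both. With 7 rats in each, that mean is uncorrelated with their difference for independent rats. The spread behind each SE is estimated over all groups, both saline controls included, so the choice may still enter the tests through it. This was not tested.

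**Figure D1:**
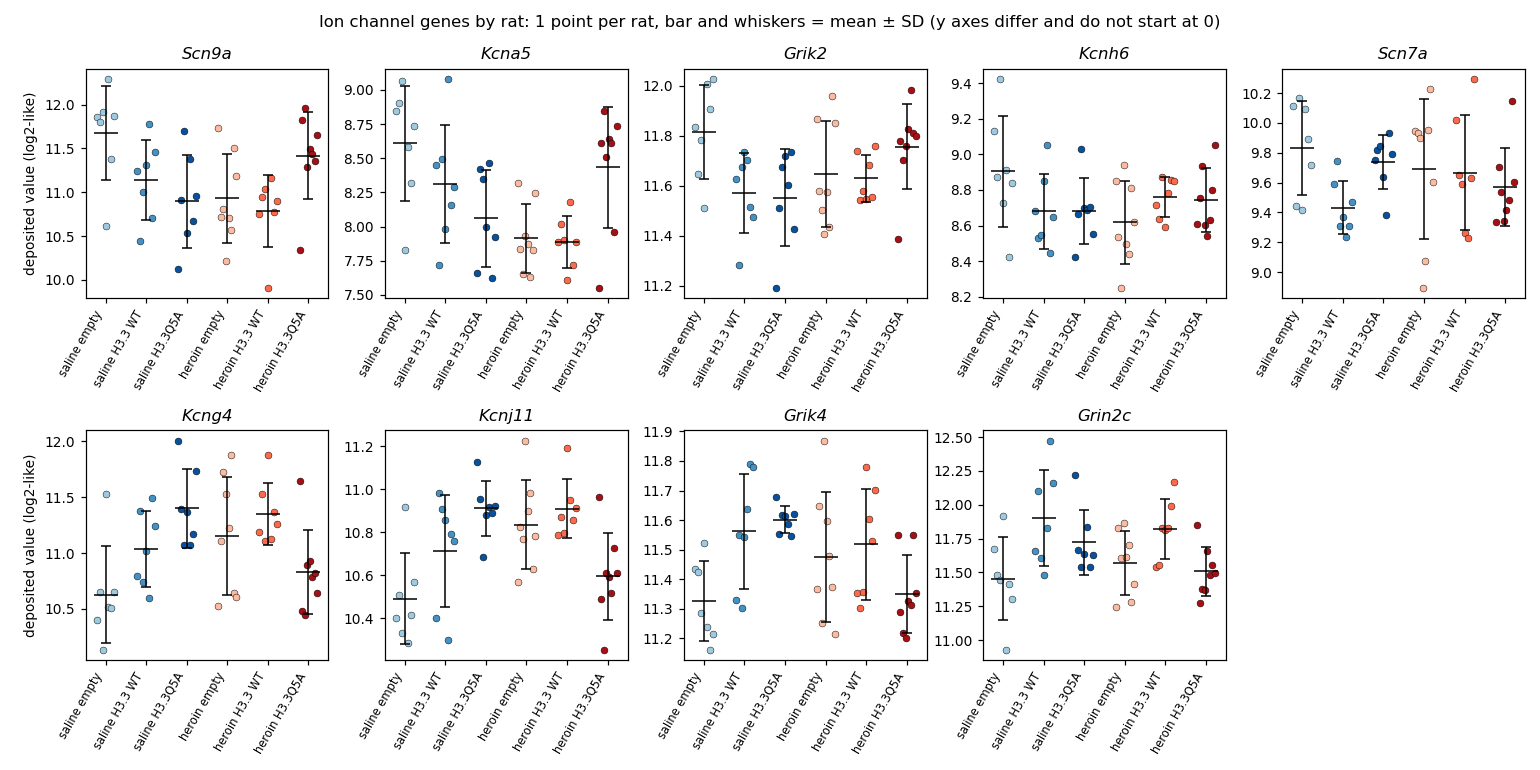
Deposited values (y axis, log2-like, a separate range for each gene) of the 9 channel genes in the 6 groups (x axis), with 1 point per rat and the mean ± SD of the group (n = 7 or 8). In the upper left panels Scn9a and Kcna5 have higher means in heroin H3.3Q5A rats than in the other heroin groups, and in the lower left panels Kcng4 and Kcnj11 have lower ones, with 1 heroin H3.3Q5A rat apart from its group for Scn9a and Kcng4.

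The first question was whether heroin SA left a difference in these channels when H3.3Q5A was absent. Averaged over the empty and H3.3 WT vectors, 4 of 9 members were DEx between heroin and saline rats, 2 higher and 2 lower, against 6.65% of all genes tested and 9.91% of the other named genes. Kcng4 and Kcnj11 were higher after heroin. Kcna5 and Scn9a were lower. None of the 3 glutamate receptor genes passed, at 0.05 ± 0.06 for Grik4, 0.02 ± 0.09 for Grin2c and -0.06 ± 0.06 for Grik2, nor did Scn7a (0.05 ± 0.11) and Kcnh6 (-0.10 ± 0.08).

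Kcna5 encodes a delayed rectifier of the Shaker family, known from heart muscle and vessels. It ran from 7.83 to 9.06 in saline empty rats (median 8.73) and from 7.72 to 9.08 in saline H3.3 WT rats (median 8.29). In heroin rats it ran from 7.63 to 8.32 with the empty vector (median 7.85) and from 7.61 to 8.18 with H3.3 WT (median 7.89). All 15 heroin rats were below the mean of the 14 saline rats, and 4 were below every one of them, though the ranges overlap. Kcna5 fell by 0.56 ± 0.13 (limma adjusted p = 0.0037). It was -0.70 ± 0.18 within the empty vector and -0.43 ± 0.19 within H3.3 WT, values that contain the choosing libraries and were not tested.

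Scn9a encodes the sodium channel best known from sensory neurons and pain. Its values were 10.62 to 12.29 in saline empty rats (median 11.86) and 10.44 to 11.78 in saline H3.3 WT rats (median 11.24). They were 10.22 to 11.73 in heroin empty rats (median 10.76) and 9.91 to 11.17 in heroin H3.3 WT rats (median 10.90). Of the 15 heroin rats 13 were below the saline mean, with wide overlap. Scn9a fell by 0.55 ± 0.17 (limma adjusted p = 0.0341), a call that was lost without any one of 11 rats, with an adjusted p of at most 0.0776, with no filter on low values (0.0635) and with the conflicting library counted by its treatment (0.0753). Its neighbour Scn7a, an atypical member of the family that responds to extracellular sodium, did not share the difference.

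Kcng4 encodes a modifier subunit that is silent alone and alters the gating of other potassium channel subunits. It ran from 10.13 to 11.53 in saline empty rats (median 10.52) and from 10.60 to 11.49 in saline H3.3 WT rats (median 11.02). After heroin it ran from 10.53 to 11.88 with the empty vector (median 11.17) and from 11.11 to 11.88 with H3.3 WT (median 11.26). Every heroin H3.3 WT rat was above the median of both saline groups, whereas the heroin empty rats were spread over the whole range. Kcng4 rose by 0.42 ± 0.14 (limma adjusted p = 0.0457), which was the weakest of the 4 calls and was lost without any one of 17 rats (adjusted p of at most 0.0937) and under 4 other alternatives, with an adjusted p between 0.0610 and 0.0824.

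Kcnj11 encodes the pore of the ATP-sensitive potassium channel, which couples the membrane to the energy state of the cell. With the empty vector its values were 10.29 to 10.92 in saline (median 10.42) and 10.57 to 11.22 in heroin rats (median 10.80). With H3.3 WT they were 10.30 to 10.98 in saline (median 10.79) and 10.78 to 11.19 in heroin rats (median 10.87). Of 15 heroin rats 14 were above the saline mean, and Kcnj11 rose by 0.27 ± 0.07 (limma adjusted p = 0.0105), a call kept without each rat in turn.

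In no member was a difference detected between the control vectors in heroin rats. No member was DEx between them, as was no gene of the 22570 (0% of all genes, with 1277 genes at an unadjusted p under 0.05 and 0 of 9 members; voom on the recovered reads also called 0). The differences ran from -0.15 ± 0.24 for Scn9a to 0.25 ± 0.13 for Grin2c. The SE leaves room for differences as large as the heroin effects in Scn9a and Kcng4 (0.20 ± 0.20), and nearly as large in Kcnj11 (0.07 ± 0.10).

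**Figure D2:**
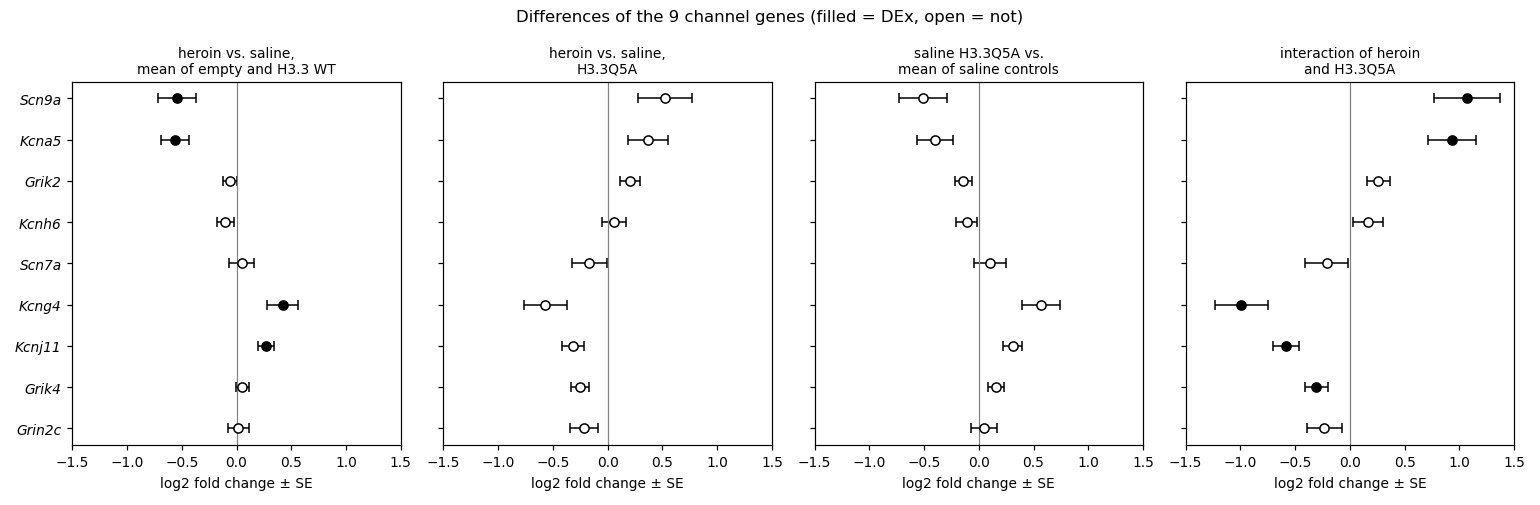
Log2 fold changes (x axis, ± SE) of the 9 channel genes (y axis) in 4 comparisons over 44 rats, filled where the gene was DEx and open where not. Heroin vs. saline has 4 filled points in the control vectors and 0 with H3.3Q5A, H3.3Q5A among saline rats has 0, and the interaction has 5.

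The second question was whether the same heroin history left the same difference in H3.3Q5A rats. Within H3.3Q5A, heroin vs. saline called 0 of 9 members, against 0.505% of all genes and 1.06% of the other named genes. An unadjusted p under 0.05 was found for 6 of 9, against 19.8% of all genes and 34.8% of the other named genes. The lowest adjusted p was 0.0745 for Kcnj11 (-0.31 ± 0.10), followed by Grik4 (-0.25 ± 0.08, adjusted p = 0.0861) and Kcng4 (-0.57 ± 0.20, adjusted p = 0.0975 in limma). Scn9a was at 0.52 ± 0.24, Kcna5 at 0.37 ± 0.18 and Grik2 at 0.20 ± 0.09. Every one of the 9 members had the opposite sign here to its mean heroin difference in the control vectors. The comparisons share no library, but the members move together from rat to rat, so that they are not 9 separate observations. Opposite signs were also frequent at large, at 62.6% of all genes tested and 59.1% of the other named genes. Only Kcng4, Kcnj11, Kcna5 and Scn9a were opposite to both control vectors, in values not tested. The empty and H3.3 WT vectors themselves differed in sign for Grik4 (0.15 and -0.04), Grin2c (0.12 and -0.08) and Grik2 (-0.17 and 0.06). They also did for Kcnh6 (-0.29 and 0.08) and Scn7a (-0.14 and 0.24). Each of these genes thus shared its sign in H3.3Q5A rats with either the empty or the H3.3 WT vector. The gap between the control vectors contains the saline H3.3 WT vs. saline empty difference, by which the members were in effect chosen. These signs are therefore a description, and the split between the control vectors is not a separate result.

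**Figure D3:**
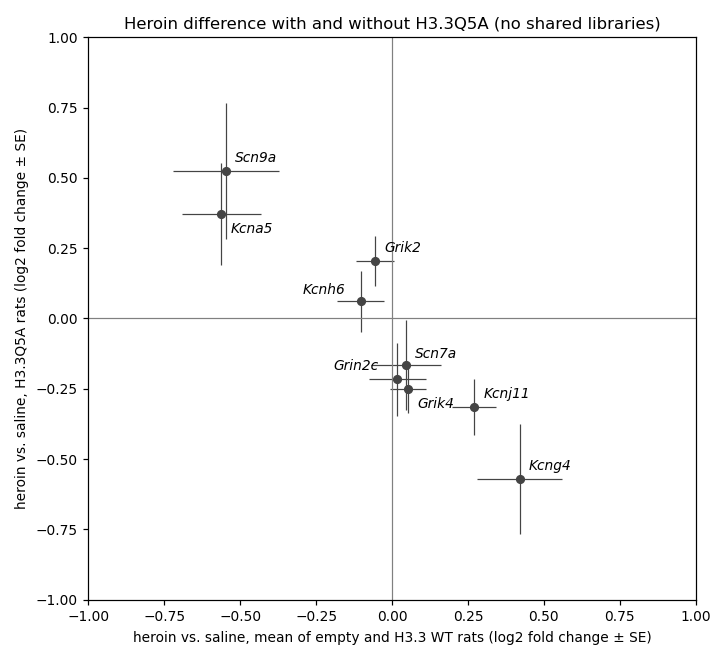
Heroin vs. saline in the mean of empty and H3.3 WT rats (x axis, 15 against 14 rats) and in H3.3Q5A rats (y axis, 8 against 7 rats), each as log2 fold change ± SE, with 1 point per channel gene. All 9 points lie in the upper left or lower right quadrant, from Scn9a and Kcna5 at one end to Kcng4 at the other, and Grik2, Grik4, Grin2c, Scn7a and Kcnh6 lie near 0 on the x axis, from -0.10 to 0.05. For these genes near 0 the x value averages opposite signs in the empty and H3.3 WT vectors, a gap that contains the comparison by which the members were chosen.

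The difference between these heroin effects was tested directly, as the interaction of drug and vector (H3.3Q5A against the mean of both controls). Of 9 members 5 were DEx, 2 higher and 3 lower, against 14.9% of all genes tested and 22.9% of the other named genes. Scn9a (1.07 ± 0.30, adjusted p = 0.0103) and Kcna5 (0.93 ± 0.22, adjusted p = 0.0030) were higher in the limma fit. Kcng4 (-0.99 ± 0.24, adjusted p = 0.0036), Kcnj11 (-0.58 ± 0.12, adjusted p = 9.0e-04) and Grik4 (-0.31 ± 0.10, adjusted p = 0.0333) were lower. These are the 4 genes of the mean heroin effect, each with the opposite sign, and Grik4. Because the interaction contains the mean heroin effect with a minus sign, its agreement in sign with that comparison carries no separate information. Without each rat in turn the first 4 kept their call, with adjusted p-values of at most 0.0286. Grik4 lost it without saline H3.3Q5A rat 28 or heroin H3.3Q5A rat 25 or 26 (adjusted p of at most 0.0632), with no filter on low values (0.0554) and with the conflicting library counted by its title (0.0562), and Grik2 gained one without heroin H3.3Q5A rat 21.

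The levels behind the interaction were as follows for the genes that were higher. Scn9a ran from 10.12 to 11.70 in saline H3.3Q5A rats (median 10.91) and from 10.34 to 11.96 in heroin H3.3Q5A rats (median 11.47). Kcna5 ran from 7.62 to 8.46 (median 7.99) and from 7.55 to 8.85 (median 8.61) in the same groups. In heroin H3.3Q5A rats 7 of 8 values of Scn9a and 6 of 8 of Kcna5 were above the mean of the saline H3.3Q5A rats, and rat 21 was the lowest of the 8 in both genes.

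For the genes that were lower, Kcng4 ran from 11.07 to 12.004 in saline H3.3Q5A rats (median 11.37) and from 10.44 to 11.65 in heroin H3.3Q5A rats (median 10.80). Of the 8 heroin rats 7 were below every saline H3.3Q5A rat, and rat 21 was the exception. Kcnj11 ran from 10.69 to 11.13 (median 10.92) against 10.25 to 10.97 (median 10.60), with 6 of 8 heroin rats below every saline one. Grik4, a kainate receptor subunit that forms channels only together with others such as the product of Grik2, ran from 11.54 to 11.68 (median 11.61) in saline H3.3Q5A rats, the tightest spread of any group in these genes (SD 0.05), and from 11.20 to 11.55 (median 11.32) in heroin H3.3Q5A rats. All 8 heroin rats were below the saline mean for Grik4, 6 of them below every saline rat.

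The third question was how H3.3Q5A compared with the controls within each drug history. In saline rats, H3.3Q5A vs. the mean of saline empty and saline H3.3 WT called 0 of 9 members in limma, against 1.0% of all genes, as did voom. An unadjusted p under 0.05 was found for 5 of 9, against 19% of all genes and 28.3% of the other named genes. Kcnj11 came nearest (0.31 ± 0.09, limma adjusted p = 0.0620), with 7 of 7 H3.3Q5A rats above the mean of the 14 controls and 1 above all of them. Kcng4 (0.57 ± 0.18, limma adjusted p = 0.0799) also had all 7 above that mean and 2 above every control. Both passed without saline empty rat 18, and Kcnj11 passed without any one of 5 rats, that rat included. The share of all genes that were DEx without these rats is not given here. Scn9a was at -0.51 ± 0.22 and Kcna5 at -0.40 ± 0.16.

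In heroin rats, H3.3Q5A vs. empty called 0 of 9 members, against 3.21% of all genes, and H3.3Q5A vs. H3.3 WT called 0 of 9, against 2.71%. Unadjusted p-values were under 0.05 for 3 of 9 members against empty (19.6% of all genes and 22.2% of the other named genes) and for 6 of 9 against H3.3 WT (17.4% and 25.6%). Kcna5 came nearest against empty (0.52 ± 0.17, limma adjusted p = 0.0757) and Kcnj11 against H3.3 WT (-0.31 ± 0.10, limma adjusted p = 0.0674). Against H3.3 WT, Scn9a was at 0.63 ± 0.24 with 7 of 8 rats above every heroin H3.3 WT rat, and Kcng4 at -0.52 ± 0.20 with 7 of 8 below every one. The remaining rat was in each case rat 21. Without that rat, 2 members were DEx against empty, 4 against H3.3 WT and 3 against saline H3.3Q5A, while the share of all genes that were DEx was higher as well, at 7.18%, 6.7% and 6.48%.

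The other members varied less between groups or varied with no common direction. Grik2, the kainate receptor subunit that forms channels alone, lay between 11.19 and 12.03 over all rats, with group medians from 11.58 to 11.84 and an interaction of 0.26 ± 0.11 (limma adjusted p = 0.0948). Grin2c, an NMDA receptor subunit typical of cerebellum and of some glia, lay between 10.93 and 12.47, with its lowest median in saline empty rats (11.44) and its highest in heroin H3.3 WT rats (11.83). Its interaction was -0.23 ± 0.16. Scn7a ranged from 8.89 to 10.30 and was widest in heroin empty rats (SD 0.47), with an interaction of -0.21 ± 0.20. Kcnh6, a potassium channel of the ether-a-go-go family, ranged from 8.25 to 9.42 with an interaction of 0.16 ± 0.13. None of these passed the test in any of the 7 comparisons.

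A further 35 genes of channels, pumps, gap junctions and channel-associated proteins from the same ordered list were counted beside the members. In the interaction 13 of 35 were DEx, 3 higher and 10 lower, against 14.9% of all genes and 22.9% of the other named genes. Their median was -0.0042, against 0.01 over all genes. Lower were Hcn2 (-0.90 ± 0.21), a pacemaker channel, Pex5l (-0.87 ± 0.21), its auxiliary protein, the calcium pump Atp2b2 (-0.83 ± 0.13), Panx2 (-0.82 ± 0.18), the intracellular sodium channel partner Fgf11 (-0.81 ± 0.20), Tmem63a (-0.83 ± 0.22), Ttyh2 (-0.80 ± 0.19), Sgk3 (-0.48 ± 0.15), Kctd17 (-0.38 ± 0.11) and Gjb1 (-0.94 ± 0.23), a connexin of myelin. Higher were Gjb2 (1.56 ± 0.26), a connexin of the meninges, and the pump regulators Fxyd1 (0.83 ± 0.18) and Fxyd5 (0.68 ± 0.18). For the mean heroin effect 8 of 35 were DEx, against 6.65% of all genes and 9.91% of the other named genes. Of these Atp2b2, Pex5l, Fgf11 and Panx2 were higher and Gjb2, Fxyd1, Fxyd5 and Kctd14 lower. Among heroin rats Gjb2 and Fxyd5 were higher and Atp2b2 lower with H3.3Q5A than with either control, and Hcn2 was lower than with H3.3 WT. The share of all genes was 3.21% against empty and 2.71% against H3.3 WT. Among saline rats only Atp2b2 was DEx (0.45 ± 0.10), against 1.0% of all genes. Between the control vectors in heroin rats 0 of 35 were DEx (0% of all genes), as between the H3.3Q5A groups (0.505% of all genes).

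Markers of other cells, which were named from the same ordered list, moved in the same comparisons. Of the 14 oligodendrocyte markers 12 were lower in the interaction (median -0.94), and all 14 had a positive mean heroin difference (median 0.35), with 2 of them DEx. Gjb1 is in this list as well as among the related genes above. In saline rats the mean of the 14 markers had a group median of 12.99 with the empty vector, 13.40 with H3.3 WT and 13.66 with H3.3Q5A. In heroin rats it was 13.47, 13.52 and 12.99 in the same order. Their summed level, in depth-normalized reads, ran in saline rats from 521362 to 1175720 with the empty vector, from 500131 to 1246500 with H3.3 WT and from 851664 to 1280860 with H3.3Q5A. In heroin rats it ran from 594108 to 1297100 with the empty vector, from 766705 to 1538280 with H3.3 WT and from 439372 to 1083630 with H3.3Q5A. By median, the markers were lowest in heroin H3.3Q5A and saline empty rats and highest in saline H3.3Q5A rats. Kcng4 and Kcnj11 had their lowest medians in saline empty, then in heroin H3.3Q5A rats, and their highest in saline H3.3Q5A rats. Scn9a and Kcna5 had their highest medians in saline empty, then in heroin H3.3Q5A rats. Members and markers were both named through saline H3.3 WT vs. saline empty. The place of saline empty rats in these orders is therefore tied to that choice, and the likeness of the orders is a description.

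The 8 meningeal markers moved the other way. All 8 were higher in the interaction (median 1.21), 7 were lower in the mean heroin effect (median -0.73), and all 8 were higher in heroin H3.3Q5A than in either other heroin group. Their group medians were 9.66, 10.69 and 9.50 in the saline groups and 9.13, 9.22 and 10.22 in the heroin groups, in the order empty, H3.3 WT, H3.3Q5A. Erythroid markers were higher in the interaction for 3 of 4, pituitary markers for 2 of the 3 named and endothelial and mural markers for 3 of 9. Astrocyte markers were lower for 3 of the 6 named, and of the 8 neuronal markers 3 were lower and 1 higher. None of the 3 named oligodendrocyte precursor or 5 microglial markers passed, and no marker was at 0 throughout a group. The part of these cells in the channel results was not tested.

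The members also followed the oligodendrocyte markers from rat to rat. After the mean of each group was subtracted, the marker mean had a Pearson r over 44 rats of -0.83 with Scn9a, -0.77 with Kcna5, -0.57 with Grik2 and -0.42 with Kcnh6. It had an r of 0.82 with Kcnj11, 0.75 with Kcng4, 0.63 with Grik4 and 0.58 with Grin2c. Among 18 correlations computed, these 8 passed a permutation test within groups after Benjamini-Hochberg adjustment (adjusted p from 3.0e-05 to 0.0136), and Scn7a (-0.25) did not (adjusted p = 0.144). Spearman's rho ran from -0.76 for Scn9a (permutation adjusted p = 4.5e-05) to 0.70 for Kcnj11 (permutation adjusted p = 5.1e-05), with the same 8 past the threshold. Leaving out the 2 rats farthest from the median of the marker mean left r at -0.82 for Scn9a and 0.82 for Kcnj11, and its sign unchanged in all 9 members. With the neuronal marker mean, 7 of 9 members passed by Pearson's r and 8 by Spearman's rho, with the highest r for Kcnj11 (0.69, rho 0.68, permutation adjusted p = 3.0e-05 and 4.5e-05, r without 2 rats 0.69) and the lowest for Grik2 (-0.55, rho -0.58, permutation adjusted p = 3.1e-04 and 2.3e-04, r without 2 rats -0.61). The 4 genes with a positive r with oligodendrocyte markers were also positive with neuronal markers, and the 5 negative ones negative. These correlations were computed for the members only. Without the share over all genes, the counts do not show a trait particular to these channel genes.

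**Figure D4:**
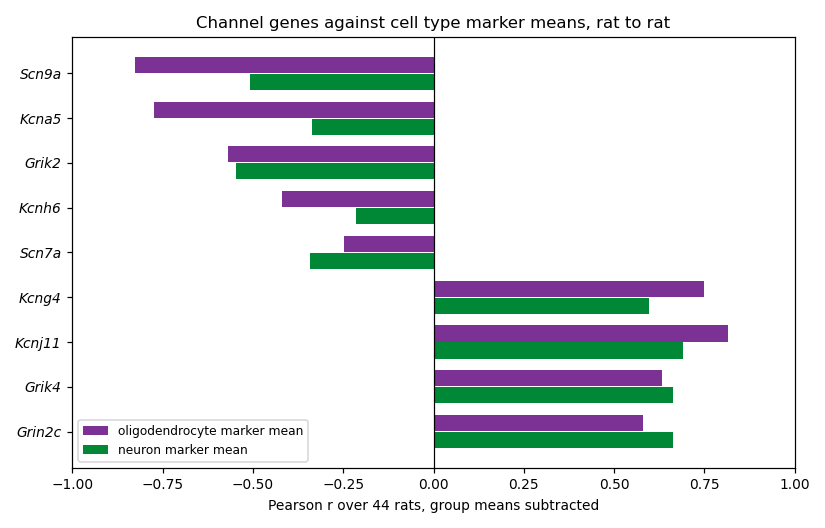
Pearson r (x axis) of each channel gene (y axis) with the mean of 14 oligodendrocyte markers and of 8 neuronal markers over 44 rats, after subtraction of group means. The upper 5 genes have negative bars and the lower 4 positive bars for both lists, with Scn9a (-0.83) and Kcnj11 (0.82) the extremes for oligodendrocyte markers.

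The same division appears among the members themselves. Over 44 rats with group means subtracted, Kcng4, Kcnj11 and Grik4, the 3 genes lower in the interaction, had r from 0.46 to 0.75 in their 3 pairs (median 0.52). Scn9a and Kcna5, the 2 that were higher, had an r of 0.76. The 6 pairs across ran from -0.82 to -0.30 (median -0.70). Grin2c went with the first set (r 0.54 to 0.68) and Grik2 with the second (0.67 with Scn9a and 0.48 with Kcna5). These values are a description, since the points share libraries and the sets were named by the interaction. The neighbours Scn9a and Scn7a had an r of 0.30.

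**Figure D5:**
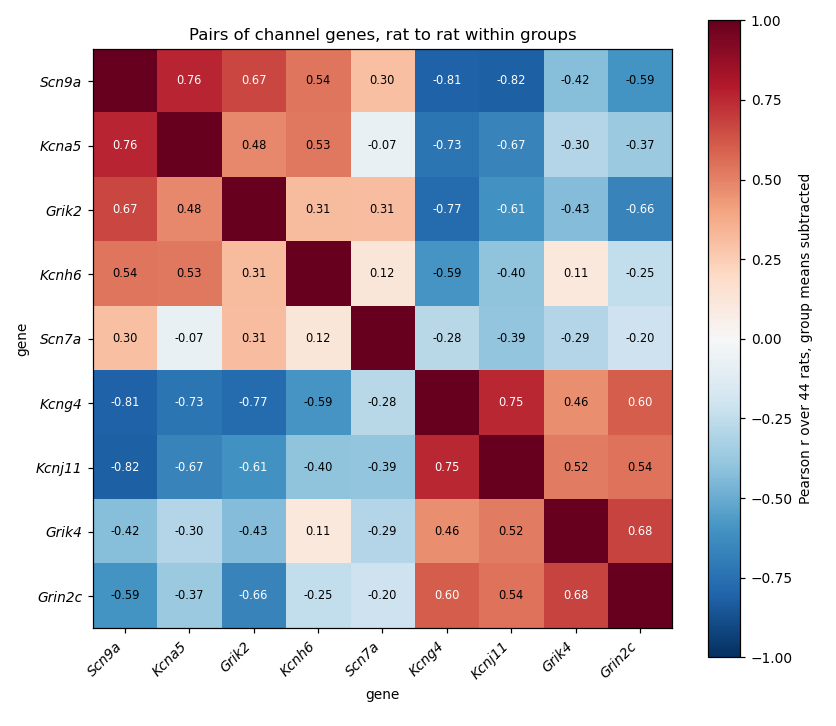
Pearson r for each pair of channel genes (both axes) over 44 rats after subtraction of group means, on a colour scale from -1 to 1. The upper left block of Scn9a, Kcna5, Grik2 and Kcnh6 and the lower right block from Kcng4 to Grin2c are positive, the blocks between them are mostly negative with a minimum of -0.82 for Scn9a and Kcnj11, and Scn7a stands between.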

How the data were processed

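RNA-seq was done on VTA punches of 44 rats in 6 groups, 1 library per rat, mapped from the labels. Reads were mapped by the authors to rn6 (HISAT2 2.1.0), those with several alignments were dropped, the rest were counted on Ensembl v90 genes (featureCounts 2.0.1), and the deposited values are counts variance-stabilized by DESeq2 2.11.40.6, on a log2-like scale. RUVr, named in the methods, is not in the deposited values. The kit does not mark strand, so overlapping antisense reads cannot be told apart. Undoing the transformation gave whole reads for 100% of values (within 0.05). Depth (24308953 to 71104049 reads) limits genes with few reads.

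The members and lists were chosen with earlier results of these data known. Of the 10 genes the rule finds and the 36 related genes listed, 1 each is not reported here; the other members are all named, and of the related genes those that were DEx. The 22570 genes that exceeded the scale's minimum in 7 or more libraries were fitted over all 6 groups in R 4.3.3 with limma 3.58.1 and an intensity trend; DEx means adjusted p under 0.05 and beyond 0.2. Correlations used 100000 permutations within groups. Alternatives were no filter, median centring, quantile normalization, 1 residual factor, the read total as covariate, only the groups compared, voom on recovered reads, both readings of the conflicting library and leaving out each rat. A count model was not run. The scripts were tested on simulated data. In 140 pairs of libraries within groups the lowest chi-square per gene was 11.1, so none was a duplicate. Of the 82 genes of the members' families 11 were named, under 80%, so no count over them was made. The columns of comparison statistics in the study's gene list were not used.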

Additional observations from a re-analysis of the deposited data

Results flagged for a closer look

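In 8 of 54 sets of values (9 genes in 6 groups), 1 rat stood apart from its group by Dixon's criterion at the 95% level, where chance gives about 2.7 (1 in 20). The sets are not independent, because the same rats recur and the genes move together from rat to rat. The 8 was therefore not tested against 2.7, and without the share over all genes it does not show a trait particular to these genes. Heroin H3.3Q5A rat 21 was apart in 3 genes, at 10.34 for Scn9a (the others 11.28 to 11.96), 11.39 for Grik2 (11.70 to 11.98) and 11.65 for Kcng4 (10.44 to 10.93). Heroin H3.3 WT rat 11 was apart at 9.91 for Scn9a (10.76 to 11.17) and 11.19 for Kcnj11 (10.78 to 10.95). Saline empty rat 18 was apart at 11.53 for Kcng4 (10.13 to 10.65), saline H3.3Q5A rat 28 at 12.22 for Grin2c (11.54 to 11.83) and heroin H3.3Q5A rat 40 at 10.15 for Scn7a (9.33 to 9.70). Of these 5 rats, 4 also had the highest oligodendrocyte marker mean of their group: 13.67 in rat 21 (the others 12.51 to 13.47), 14.14 in rat 11 (13.20 to 13.70), 13.71 in rat 18 (12.67 to 13.01) and 13.84 in rat 28 (13.37 to 13.69). Rat 40, at 13.47, lay within its group. Other markers were also at an end in some of them: rats 21 and 18 had the highest neuronal marker mean of their groups, at 13.36 (the others 13.10 to 13.26) and 13.30 (13.07 to 13.19), and rat 21 the lowest meningeal mean, at 9.09 (9.33 to 11.19). The part of these cells in the values was not tested.

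The heroin difference depended on the vector, by a test of the interaction, for 5 genes: Scn9a (1.07) and Kcna5 (0.93) were higher, and Kcng4 (-0.99), Kcnj11 (-0.58) and Grik4 (-0.31) were lower. The call for Grik4 was lost without any one of 3 rats and in 2 other settings.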

How the results depend on the processing

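The count of DEx members in the interaction, 5 in the fit reported, stayed within 4 to 6 under every alternative run, and that of H3.3 WT vs. empty in heroin rats stayed at 0. The other counts moved. Among heroin rats, H3.3Q5A vs. empty (0) became 1 with median centring and 4 with 1 residual factor, and ranged from 0 to 2 without each rat in turn. The share of all genes that were DEx was 9.74% with median centring and 8.14% with 1 residual factor. H3.3Q5A vs. H3.3 WT (0) became 1 and 4 in the same settings, with 5.41% and 7.17% of all genes DEx, and ranged from 0 to 4. Heroin vs. saline in H3.3Q5A rats (0) became 2 with median centring, 5 with 1 residual factor and 1 with only the groups compared, and ranged from 0 to 3. In these settings 4.33%, 6.77% and 1.98% of all genes were DEx. The highest count without a rat was in each of these 3 comparisons without heroin H3.3Q5A rat 21. Without it 7.18%, 6.7% and 6.48% of all genes were DEx in the same order. The mean heroin effect (4) became 2 with no filter on low values or with the conflicting library counted by its treatment, and ranged from 2 (without saline empty rat 10, 13, 15, 22 or 42, saline H3.3 WT rat 44, heroin empty rat 7, 13 or 14, or heroin H3.3 WT rat 11) to 4. Saline H3.3Q5A vs. the mean of the saline controls (0) became 1 with the conflicting library by its title, 2 with median centring and 4 with 1 residual factor, and ranged from 0 to 2 (2 without saline empty rat 18). In these settings 2.54%, 2.53% and 5.99% of all genes were DEx, and the share without rat 18 is not given here. With no filter more genes enter the adjustment; the causes of the other moves were not tested. The residual factor is taken from the same values, after the group means. Of the single genes' values under these alternatives and comparisons, none turned its direction while DEx. They were counted together with the alternative correlations, for which only the sign of r was compared. In that count 567 kept their side of the threshold or their sign of r. A further 26 passed the threshold, 8 lost it and 2 that were never DEx moved across 0. The calls lost were those of the mean heroin effect for Kcng4 (4 settings) and Scn9a (2), and of Grik4 in the interaction (2). The share of all genes that were DEx ranged over the alternatives other than leaving out a rat from 8.72% to 24% in the interaction (14.9% as reported), from 3.77% to 9.73% for the mean heroin effect (6.65%), from 0.115% to 5.99% for H3.3Q5A among saline rats, from 0% to 6.77% between the H3.3Q5A groups (0.505%), from 0.448% to 9.74% against heroin empty (3.21%) and from 0% to 7.17% against heroin H3.3 WT rats (2.71%). Median centring shifted the median of all genes by -0.12 in the interaction and the share of DEx genes that were higher from 52.2% to 19.1%. No paired analysis was possible because the groups share fewer than 2 replicate numbers, which are rat numbers. Depth limits Kcna5 and Kcnh6 most.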
